A study of Mus musculus with 4 samples.

Results

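Metzincin proteases and their inhibitors were examined in 3T3-L1, a mouse line of preadipocytes that become fat cells under adipogenic hormones. The genes are the matrix metalloproteinases (Mmp), the tissue inhibitors of metalloproteinases (Timp), the membrane-anchored ADAM proteases (Adam), the secreted ADAMTS proteases (Adamts) and the ADAMTS-like proteins (Adamtsl). They are defined by gene symbol, and the symbol rule uses none of their values. The mouse annotation holds 81 symbols of these kinds. Of these, 45 had a row in the deposited data, out of 13085 genes in all. The other 36 are not analysed here.

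The 4 stable lines were profiled by RNA-seq, with 1 sample each. FLAG-CACUL1 cells overexpress CACUL1, a protein with a cullin domain that binds the kinase CDK2, and FLAG cells carry the empty FLAG vector. The sh-CACUL1 line expresses a hairpin RNA against Cacul1, and the sh-Luc line a hairpin against luciferase. All lines are transfected 3T3-L1 cells. G418 selected the resistant colonies of the FLAG vectors and hygromycin B those of the hairpin vectors, and whether a line is 1 clone is not given in the sources used here. All cells received rosiglitazone (a PPARγ agonist) at 5 μM, IBMX (a phosphodiesterase inhibitor) at 0.5 mM, dexamethasone at 1 μg/mL and insulin at 5 μg/mL in medium with 10% serum, then insulin alone, and RNA was taken on differentiation day 8. The design asks what CACUL1 overexpression and depletion each change against the control with the same vector. There were no replicates, so no difference below has a replicate check and none was tested.

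Metalloproteinases cut extracellular matrix and cell-surface proteins at a zinc-containing active site, and fat cells have to remodel a collagen-rich matrix as they round up and fill with lipid. MMP14 (MT1-MMP) is anchored in the plasma membrane and is the main pericellular collagenase of adipose tissue. TIMP2 has a double role, because it inhibits metalloproteinases but also bridges MMP14 to the inactive precursor of MMP2, which a neighbouring MMP14 molecule then cuts. ADAM proteases mainly shed membrane proteins from the cell surface, ADAMTS proteases cut proteoglycans and procollagens, and ADAMTS-like proteins lack the protease domain and bind to the matrix.

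Values are FPKM, the fragments on each kilobase of a transcript relative to all fragments of the sample, so levels can be compared between genes. A difference is the log2 ratio of FPKM + 1, which understates the difference of low genes, and 2-fold was the limit for counting a gene as higher or lower. Depth was estimated from the steps of low FPKM values at between 14300000 fragments in FLAG-CACUL1 and 23900000 in sh-Luc. Cacul1 itself had 9.61 FPKM in FLAG and 11.8 in FLAG-CACUL1, then 10.2 for sh-Luc and 5.39 for sh-CACUL1. Its log2 difference was 0.27 upon overexpression and -0.82 upon depletion, both short of 2-fold. After scaling by median-of-ratios it was 0.14 and -0.40. The study checked the protein in both lines by western blot, which these RNA values do not measure. The median log2 difference over all genes was 0.09 upon overexpression and -0.30 upon depletion, and scaling by median-of-ratios brought it to 0.01 in each.

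The labels call the cells preadipocytes, and markers of fat cells were present in every sample. Of 8 adipocyte markers, 7 had a row, and their summed level was 8392 FPKM in FLAG and 880 in FLAG-CACUL1, then 1687 for sh-Luc and 17514 for sh-CACUL1. Each of the 7 was lower by 2-fold or more upon overexpression and higher by as much upon depletion. No listed marker with a row was at 0. In preadipocyte and fibroblast markers no common direction was seen, with 3 of 6 higher and 1 lower in FLAG-CACUL1 and 2 higher and 3 lower in sh-CACUL1. The defining macrophage markers Adgre1, Ptprc and Itgam had no row, and neither did 3 of 4 endothelial and 3 of 4 epithelial markers. Of the macrophage markers with a row, Lyz2 had 8.12 FPKM in FLAG and 66.5 in FLAG-CACUL1, then 5.03 for sh-Luc and 1.72 for sh-CACUL1. Cd68 had 16.2, 1.44, 0.962 and 1.18 FPKM in this order, and Csf1r stayed under 1 FPKM. RNA from a culture cannot tell fewer cells of a type from less RNA per cell.

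Promoter sequences of 4 genes are shown first, because these genes span the patterns described below. Mmp14 and Timp2 were higher in FLAG-CACUL1 and in sh-Luc, Mmp3 was highest in FLAG-CACUL1, and Mmp13 was high in FLAG-CACUL1 alone. Each run is the 250 bases before the RefSeq transcription start on GRCm38.p6, in the direction of the gene. Gene spans given below are from GENCODE, and the 2 annotations can differ. The Timp2 stretch lies inside its GENCODE span, 118301069 to 118355740, so its RefSeq start is downstream of the GENCODE start. Capitals mark the searched motifs: the GC box GGGCGG, the AP-1 motif TGANTCA and the TATA box TATAAA, each on either strand. The Mmp14 stretch is chr14:54431348-54431597 (plus strand), that of Timp2 chr11:118355412-118355661 (minus strand), that of Mmp3 chr9:7445572-7445821 (plus strand) and that of Mmp13 chr9:7272264-7272513 (plus strand).
Mmp14: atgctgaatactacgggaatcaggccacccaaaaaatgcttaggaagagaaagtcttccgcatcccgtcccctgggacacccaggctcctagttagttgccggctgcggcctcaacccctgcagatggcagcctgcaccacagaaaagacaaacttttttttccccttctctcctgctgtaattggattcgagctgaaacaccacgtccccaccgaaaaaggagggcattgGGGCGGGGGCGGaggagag
Timp2: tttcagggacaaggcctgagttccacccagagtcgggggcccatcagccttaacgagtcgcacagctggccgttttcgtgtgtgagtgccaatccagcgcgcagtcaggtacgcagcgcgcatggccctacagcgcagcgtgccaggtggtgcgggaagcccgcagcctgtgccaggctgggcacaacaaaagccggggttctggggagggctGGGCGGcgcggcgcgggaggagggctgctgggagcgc
Mmp3: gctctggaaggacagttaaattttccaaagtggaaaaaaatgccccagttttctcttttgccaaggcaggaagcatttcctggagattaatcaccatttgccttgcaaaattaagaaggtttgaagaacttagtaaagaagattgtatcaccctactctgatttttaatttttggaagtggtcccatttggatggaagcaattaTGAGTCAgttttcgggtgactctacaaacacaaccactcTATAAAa
Mmp13: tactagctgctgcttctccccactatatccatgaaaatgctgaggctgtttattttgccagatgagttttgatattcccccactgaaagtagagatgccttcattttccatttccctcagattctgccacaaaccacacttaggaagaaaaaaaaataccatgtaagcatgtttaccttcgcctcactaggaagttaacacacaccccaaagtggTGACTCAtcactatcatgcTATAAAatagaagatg

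The stretch of Mmp14 held 2 GC boxes that touch each other, at 19 to 14 and 13 to 8 bases before the start, and that of Timp2 held 1 GC box at 37 to 32 bases. Mmp3 had an AP-1 motif at 46 to 40 bases and a TATA box at 7 to 2 bases. Mmp13 had an AP-1 motif at 35 to 29 bases and a TATA box at 16 to 11 bases. No 2 of the searched motifs overlapped in these stretches. Among 32851 promoters of the same length, the AP-1 motif was found in 6.75%, the GC box in 32.7% and the TATA box in 12.4%. Promoters were listed for 30 of the 45 genes, 33 in all, and of these the AP-1 motif was found in 3 (Adam19, Mmp13 and Mmp3), the GC box in 19 and the TATA box in 4 (Adamts1, Adamtsl2, Mmp13 and Mmp3). Mmp2 had no entry. A match of letters is a description and not a binding site.

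In FLAG-CACUL1 against FLAG, 12 of the 45 genes differed at least 2-fold, 26.7%, against 14.7% of all genes. Of these 9 were higher, where 7.51% of all genes were, and 3 were lower, where 7.22% were. In sh-CACUL1 against sh-Luc, 24 of the 45 differed, 53.3%, against 21.3% of all genes. Only 2 of them were higher (4.94% of all genes) and 22 were lower (16.4% of all genes). The median log2 difference of the 45 genes was 0.30 upon overexpression and -0.94 upon depletion.

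By class, 5 of 11 Mmp genes were higher and 1 lower in FLAG-CACUL1, and 7 were lower and 0 higher in sh-CACUL1. Of 4 Timp genes, 1 was higher in FLAG-CACUL1 and 2 were lower in sh-CACUL1. The 13 Adamts genes gave 2 higher and 1 lower in FLAG-CACUL1, and 1 higher and 8 lower in sh-CACUL1. Of 13 Adam genes, 12 stayed under 2-fold upon overexpression and 9 upon depletion. The 4 Adamtsl genes gave 1 higher in FLAG-CACUL1 and 2 lower in sh-CACUL1.

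**Figure D1:**
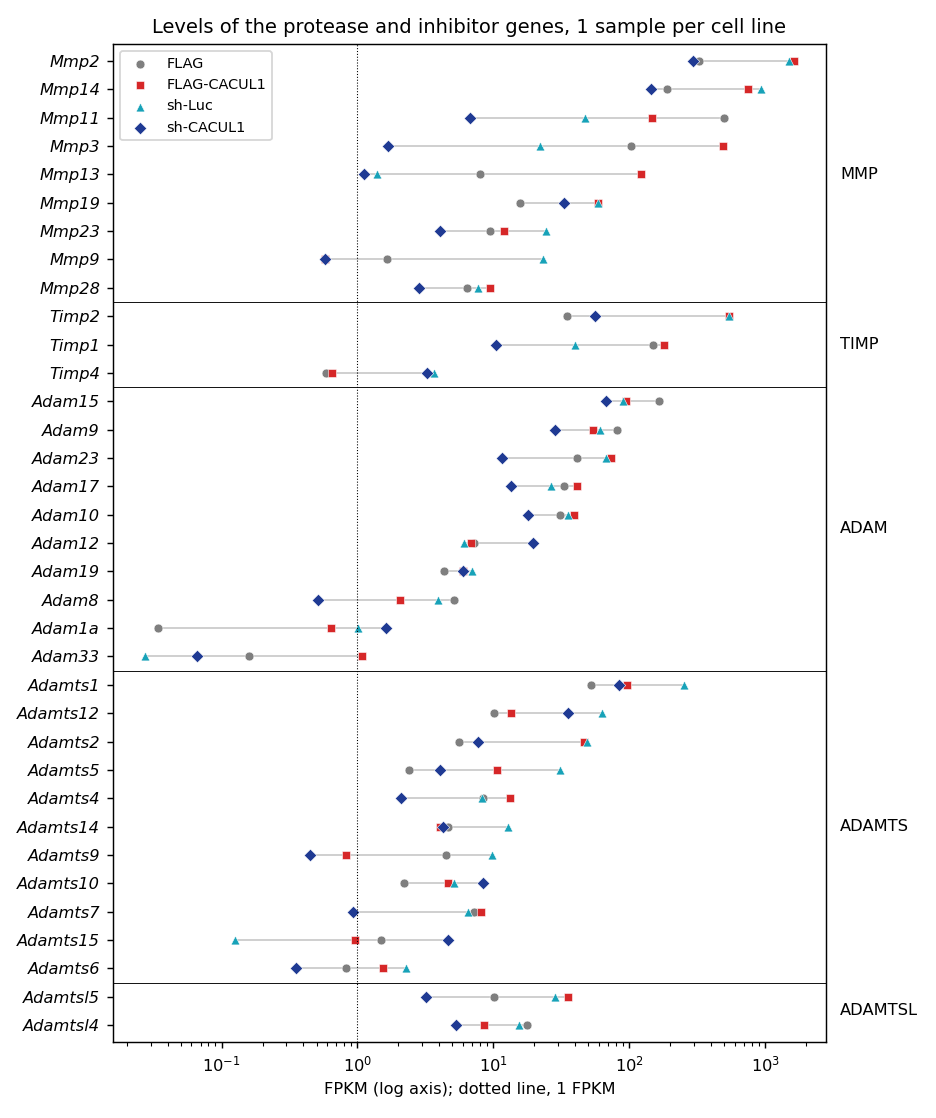
FPKM (log axis) of the 35 genes with at least 1 FPKM in at least 1 sample, by class, with a point for each of the 4 samples and a grey line from the lowest to the highest. For Mmp2, Mmp14, Timp2 and Adamts2 the points form 2 pairs, FLAG with sh-CACUL1 and FLAG-CACUL1 with sh-Luc.

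Opposite differences of 2-fold or more were found for 7 of the 45 genes, against 4.71% of all genes. All 7 were higher upon overexpression and lower upon depletion, which held for 3.02% of all genes. They were Mmp2, Mmp14, Mmp3, Timp2, Adamts2, Adamts5 and Adamtsl5. None of the 45 showed the reverse combination against the control with the same vector. A further 3, Mmp11, Adam8 and Adamts9, were lower in both, against 0.802% of all genes.

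**Figure D2:**
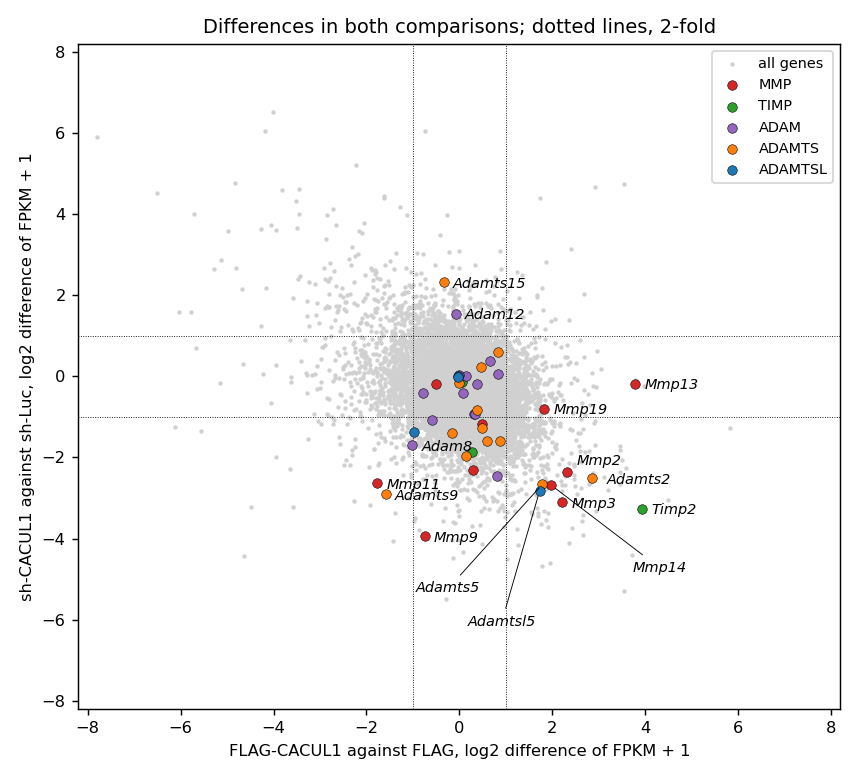
Log2 difference of FPKM + 1 in FLAG-CACUL1 against FLAG (x axis) and in sh-CACUL1 against sh-Luc (y axis) for all 13085 genes (grey) and the 45 protease and inhibitor genes, coloured by class. The lower right field holds the 7 genes that were higher upon overexpression and lower upon depletion, with Timp2 farthest out, and the upper left field holds none of the 45.

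The 3 genes of the MMP14-dependent activation of MMP2 were among these 7. Mmp14 (NM_008608, chromosome 14, 54431612 to 54445364 on GRCm38, plus strand) had 191 FPKM in FLAG and 750 in FLAG-CACUL1, then 932 for sh-Luc and 145 for sh-CACUL1. FLAG-CACUL1 and sh-Luc were the high samples. The log2 difference was 1.97 upon overexpression and -2.68 upon depletion, and the latter was -2.37 relative to the median of all genes. The FPKM ratio was 3.93 in FLAG-CACUL1, with a 95% counting interval of 3.83 to 4.04, and in sh-CACUL1 the level was 6.44-fold lower (6.26 to 6.62). Such intervals are exact, rest on the estimated fragments and cover counting error only, not the spread between cultures.

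Mmp2 (NM_008610, chromosome 8, 92827291 to 92853420, plus strand), the gelatinase that also cuts basement membrane collagen, had 324 FPKM in FLAG and 1624 in FLAG-CACUL1, then 1504 for sh-Luc and 293 for sh-CACUL1. It was the most abundant Mmp in every sample except FLAG, where Mmp11 was higher. Its log2 difference was 2.32 upon overexpression and -2.36 upon depletion, that is -2.05 relative to all genes. The ratio of Mmp2 to Mmp14 ranged from 1.61 in sh-Luc to 2.16 in FLAG-CACUL1.

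Timp2 (NM_011594, chromosome 11, 118301069 to 118355740, minus strand) had 34.7 FPKM in FLAG and 544 in FLAG-CACUL1, then 546 for sh-Luc and 55.8 for sh-CACUL1. Of the 45 genes it had the largest positive log2 difference in FLAG-CACUL1, 3.93, and in sh-CACUL1 it was -3.27, or -2.96 relative to all genes. The FPKM ratio was 15.7 (14.9 to 16.4) upon overexpression, and upon depletion the level was 9.78-fold lower (9.43 to 10.1). Timp2 thus differed by more than Mmp14, and its FPKM relative to that of Mmp14 was 0.182 in FLAG and 0.725 in FLAG-CACUL1, then 0.586 for sh-Luc and 0.386 for sh-CACUL1.

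For these genes the size of each difference rested on the control. So did the direction for Mmp14 in FLAG-CACUL1 and for Timp2 in both comparisons. FLAG lay below sh-Luc by 2.21 on the log2 scale for Mmp2, 2.28 for Mmp14 and 3.94 for Timp2, although neither line alters CACUL1. Set against sh-Luc, FLAG-CACUL1 differed by 0.11 for Mmp2, -0.31 for Mmp14 and -0.0047 for Timp2. Set against FLAG, sh-CACUL1 differed by -0.15, -0.40 and 0.67, respectively. None of these 6 values reached 2-fold. Comparisons with the other control share samples with those above and are given as values only.

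The adipocyte markers moved the other way in the same samples. Adipoq, the fat cell hormone adiponectin, had 837 FPKM in FLAG and 23.0 in FLAG-CACUL1, then 171 for sh-Luc and 1252 for sh-CACUL1. The samples with high Mmp2, Mmp14 and Timp2 were thus those with low Adipoq. The part of the adipocyte program in these differences was not tested.

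**Figure D3:**
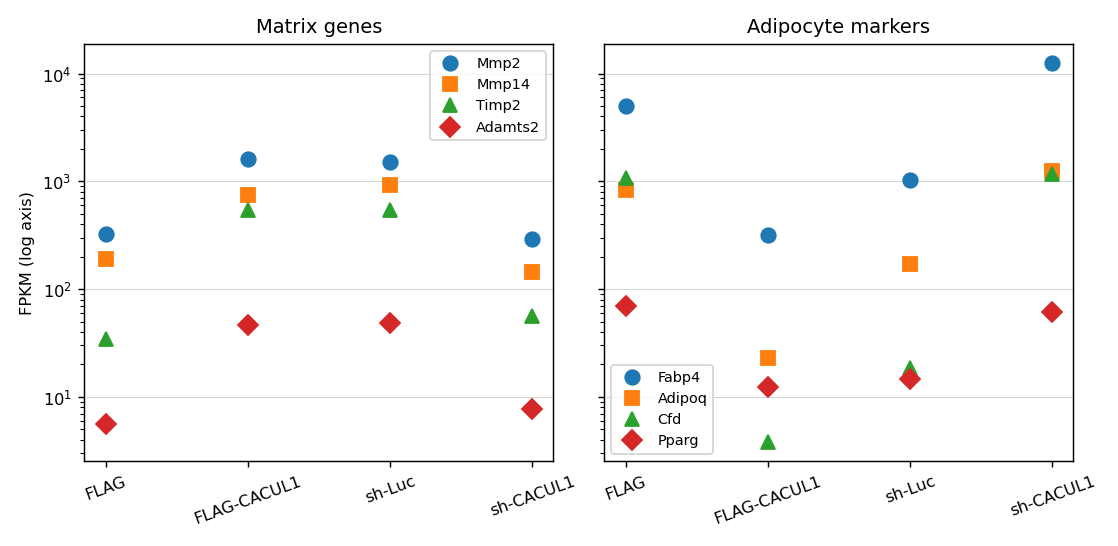
FPKM (log axis) of Mmp2, Mmp14, Timp2 and Adamts2 (left) and of the adipocyte markers Fabp4, Adipoq, Cfd and Pparg (right) in the 4 samples. The matrix genes are high in FLAG-CACUL1 and sh-Luc, and the markers are high in FLAG and sh-CACUL1.

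The stromelysins and the collagenase followed another order. Mmp3 (stromelysin-1, NM_010809, chromosome 9, 7445822 to 7455975, plus strand) cuts proteoglycans and fibronectin and activates other MMPs. It had 104 FPKM in FLAG and 487 in FLAG-CACUL1, then 22.1 for sh-Luc and 1.68 for sh-CACUL1. Both FLAG-vector lines lay above both hairpin lines. The log2 difference was 2.22 upon overexpression and -3.11 upon depletion, and upon depletion the level was 13.2-fold lower (9.69 to 17.9). With the other control the differences were larger and in the same directions, 4.40 for FLAG-CACUL1 against sh-Luc and -5.29 for sh-CACUL1 against FLAG.

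Mmp13 (NM_008607, chromosome 9, 7272514 to 7283331, plus strand), the main interstitial collagenase of the mouse, lies in the same cluster of Mmp genes as Mmp3. It had 7.96 FPKM in FLAG and 123 in FLAG-CACUL1, then 1.40 for sh-Luc and 1.12 for sh-CACUL1. The gene was thus high in FLAG-CACUL1 alone. Its log2 difference was 3.79 upon overexpression, a ratio of 15.4 (13.8 to 17.4), and -0.18 upon depletion from a level that was already low. Mmp3 and Mmp13 share an AP-1 motif and a TATA box in the stretches printed above, and a link between motifs and levels was not tested.

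Mmp11 (stromelysin-3, NM_008606), an enzyme that cuts few matrix proteins, was the most abundant Mmp in FLAG. It had 501 FPKM in FLAG and 147 in FLAG-CACUL1, then 47.1 for sh-Luc and 6.71 for sh-CACUL1. Its log2 difference was negative in both comparisons, -1.76 and -2.64. The controls themselves were 3.39 apart on the log2 scale. Against sh-Luc, FLAG-CACUL1 was higher by 1.62, so the direction of the first difference depended on the control. Mmp11 overlaps an exon of Chchd10 on the opposite strand, and strandedness of the libraries is not given in the sources used here. Overlaps with an exon of another gene that has a row were found for 8 of the 35 named genes in all, the others being Adam17, Adam1a, Adamts4, Adamts7, Mmp19, Mmp28 and Timp4.

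Mmp9, the second gelatinase, had 1.65 FPKM in FLAG and 0.579 in FLAG-CACUL1, then 23.1 for sh-Luc and 0.572 for sh-CACUL1. Only sh-Luc was high. The log2 difference of -3.94 in sh-CACUL1, a level 40.5-fold lower (28.1 to 62.4), was the most negative of the 45 genes, and that in FLAG-CACUL1 was -0.75. Against FLAG, sh-CACUL1 differed by -0.75, short of 2-fold.

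Mmp19, a soluble protease of basement membranes, had 15.8 FPKM in FLAG and 58.7 in FLAG-CACUL1, then 58.5 for sh-Luc and 33.1 for sh-CACUL1. It was low in FLAG, so the log2 difference was 1.83 upon overexpression and -0.80 upon depletion. Mmp23, a membrane protein, had 9.49 FPKM in FLAG and 11.9 in FLAG-CACUL1, then 24.3 for sh-Luc and 4.07 for sh-CACUL1, with a difference of 0.30 and -2.32. Mmp28 (epilysin) had 6.43, 9.43, 7.65 and 2.82 FPKM in the same order of samples, with 0.49 and -1.18. The latter was under 2-fold after scaling by median-of-ratios or quantile normalization. The membrane-type genes Mmp15 and Mmp17 stayed under 1 FPKM in every sample, which left Mmp14 as the membrane-type member above that level.

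Summed over the class, Mmp transcripts amounted to 1162 FPKM in FLAG and 3211 in FLAG-CACUL1, then 2620 for sh-Luc and 488 for sh-CACUL1. The make-up differed as well. Mmp2 made up 27.9% of the sum in FLAG and 50.6% in FLAG-CACUL1, then 57.4% for sh-Luc and 60.1% for sh-CACUL1. Mmp11 made up 43.1% in FLAG and between 1.37% and 4.58% in the other 3 samples. Mmp3 reached 15.2% in FLAG-CACUL1 and stayed under 1% in the hairpin lines, at 0.842% and 0.344%.

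**Figure D4:**
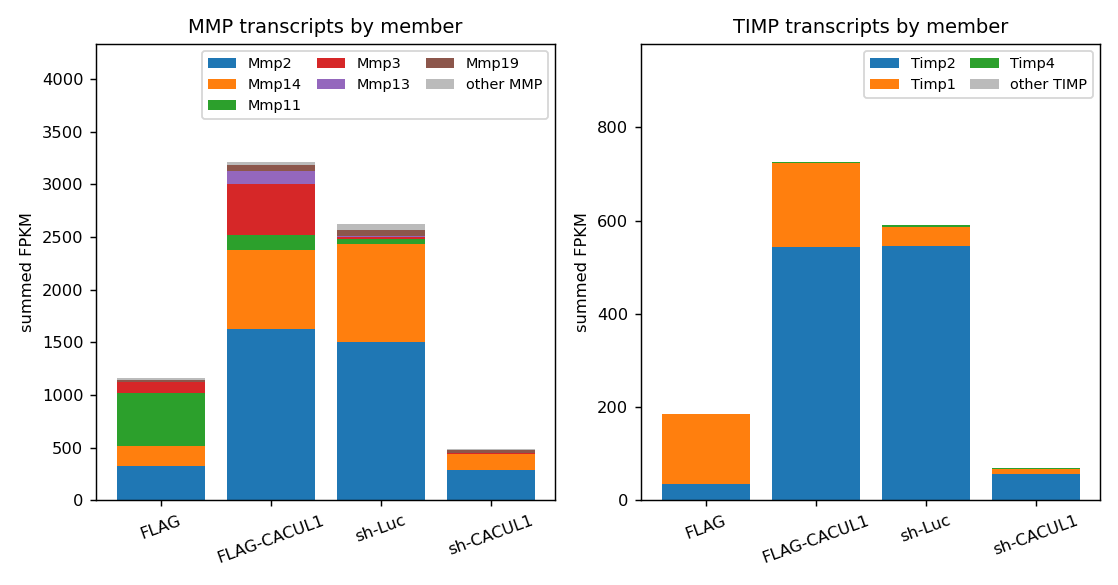
Summed FPKM of the Mmp genes (left) and the Timp genes (right) in the 4 samples, stacked by gene. Mmp11 takes 43.1% of the Mmp sum in FLAG, and Timp1 takes 80.9% of the Timp sum there, while Timp2 takes 75.0% to 92.6% in the other 3 samples.

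The inhibitors differed from each other. Timp1 (NM_011593, chromosome X, 20870166 to 20874735, plus strand), a soluble inhibitor that binds MMP14 only weakly, had 149.8 FPKM in FLAG and 180 in FLAG-CACUL1, then 40.2 for sh-Luc and 10.4 for sh-CACUL1. Both FLAG-vector lines were high, as for Mmp3. The log2 difference was 0.27 upon overexpression and -1.86 upon depletion, the latter a level 3.87-fold lower (3.23 to 4.67). Against the other control it was 2.14 and -3.73.

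Timp4 had 0.589 FPKM in FLAG and 0.649 in FLAG-CACUL1, then 3.68 for sh-Luc and 3.26 for sh-CACUL1, higher in both hairpin lines, with log2 differences of 0.05 and -0.13. The counting intervals of its ratios included 1 in both comparisons, 0.726 to 1.67 and 0.760 to 1.03. Timp4 overlaps an exon of Syn2 on the opposite strand. Timp3, the matrix-bound inhibitor that also blocks ADAM17, was at 0.0302 FPKM or less in every sample, at most 3 estimated fragments, and no difference was detectable at this depth.

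The Timp sum was 185 FPKM in FLAG and 725 in FLAG-CACUL1, then 590 for sh-Luc and 69.5 for sh-CACUL1. Timp1 was 80.9% of it in FLAG against 6.81% in sh-Luc. Relative to the Mmp sum, the Timp sum was 0.159 in FLAG and 0.226 in FLAG-CACUL1, then 0.225 for sh-Luc and 0.142 for sh-CACUL1.

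The ADAM proteases varied less. The zinc-binding motif of an active protease, HEXXHXXGXXH, was found in at least 1 coding transcript of 9 of the 13 Adam genes, and none was found for Adam11, Adam22, Adam23 and Adam32. The sheddases Adam10, which cuts Notch receptors, and Adam17, which releases tumour necrosis factor and growth factors of the epidermal growth factor family, were well expressed. Adam10 had 31.1 FPKM in FLAG and 38.9 in FLAG-CACUL1, then 35.5 for sh-Luc and 18.0 for sh-CACUL1. Adam17 had 32.8, 41.6, 26.4 and 13.4 FPKM in the same order. Both were lowest in sh-CACUL1, at -0.94 and -0.93 on the log2 scale, just under 2-fold, and these were -0.64 and -0.63 relative to all genes. In FLAG-CACUL1 Adam10 and Adam17 were at 0.32 and 0.33.

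Adam15 was the most abundant Adam, with 165 FPKM in FLAG and 94.9 in FLAG-CACUL1, then 90.4 for sh-Luc and 68.0 for sh-CACUL1, and it differed by -0.79 and -0.40. Adam9 had 81.5 FPKM in FLAG and 54.2 in FLAG-CACUL1, then 61.1 for sh-Luc and 28.7 for sh-CACUL1. Its difference of -1.07 upon depletion was -0.76 relative to all genes, and it was -0.58 upon overexpression. Adam8, an enzyme best known from myeloid cells, had 5.17, 2.07, 3.89 and 0.511 FPKM in this order and was lower in both comparisons, at -1.01 and -1.70 on the log2 scale. Against the other control Adam8 was at -0.67, short of 2-fold, and -2.03.

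Adam12, known from muscle and fat development, was an exception. It had 7.25 FPKM in FLAG and 6.86 in FLAG-CACUL1, then 6.10 for sh-Luc and 19.7 for sh-CACUL1. The gene was high in sh-CACUL1 alone, at 1.54 against sh-Luc, a ratio of 3.23 (3.01 to 3.47), and 1.33 against FLAG. In FLAG-CACUL1 it was at -0.07.

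Adam23, which lacks the motif and acts in cell adhesion, had 41.1 FPKM in FLAG and 73.3 in FLAG-CACUL1, then 68.0 for sh-Luc and 11.5 for sh-CACUL1. Its log2 difference was 0.82 upon overexpression and -2.47 upon depletion, a level 5.92-fold lower (5.56 to 6.30), and it stayed lower against FLAG, at -1.76. It supplied nearly all transcripts of the Adam genes without the motif, whose sum was 41.2 FPKM in FLAG and 73.5 in FLAG-CACUL1, then 68.4 for sh-Luc and 11.6 for sh-CACUL1. The sum of those with the motif was 327, 246, 231 and 156 FPKM. Adam19 stayed under 2-fold in both comparisons, at 0.38 and -0.19. On the FPKM + 1 scale so did the low genes Adam1a, with 0.034, 0.642, 1.01 and 1.62 FPKM in the order above, and Adam33, with 0.159, 1.07, 0.027 and 0.065 FPKM. Their plain FPKM ratios in FLAG-CACUL1 were 18.9 (4.14 to 140) for Adam1a, from 2 estimated fragments in FLAG, and 6.76 (2.99 to 17.5) for Adam33, and both passed 2-fold with a pseudocount of 0.1.

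The ADAMTS proteases were grouped by the substrate they are known for. Among the procollagen N-propeptidases, which trim fibrillar procollagens, Adamts2 (NM_001277305, chromosome 11, 50602084 to 50807573, plus strand) had 5.59 FPKM in FLAG and 46.6 in FLAG-CACUL1, then 48.8 for sh-Luc and 7.74 for sh-CACUL1. It had the order of Timp2. The log2 difference was 2.85 and -2.51, with ratios of 8.33 (7.64 to 9.08) and 6.30-fold lower (5.87 to 6.77), and against the other control it was -0.06 and 0.41. Adamts14 had 4.67 FPKM in FLAG and 4.06 in FLAG-CACUL1, then 12.7 for sh-Luc and 4.25 for sh-CACUL1, high in sh-Luc alone, with -0.16 and -1.39, the latter under 2-fold after either scaling.

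Among the proteoglycanases, Adamts1 and Adamts5 are neighbours on the minus strand of chromosome 16, at 85793827 to 85803113 and 85856173 to 85901828. Adamts1 had 52.3 FPKM in FLAG and 96.3 in FLAG-CACUL1, then 254 for sh-Luc and 84.0 for sh-CACUL1. Adamts5 had 2.39 FPKM in FLAG and 10.7 in FLAG-CACUL1, then 31.0 for sh-Luc and 4.07 for sh-CACUL1. Both were highest in sh-Luc and lowest in FLAG. The log2 differences were 0.87 and -1.58 for Adamts1 and 1.79 and -2.66 for Adamts5. Set against sh-Luc, FLAG-CACUL1 was at -1.39 for Adamts1 and -1.45 for Adamts5, and set against FLAG, sh-CACUL1 was at 0.67 and 0.58. Both directions thus depended on the control for both genes.

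Adamts4 had 8.35 FPKM in FLAG and 13.2 in FLAG-CACUL1, then 8.28 for sh-Luc and 2.09 for sh-CACUL1. Its controls were alike, with 0.01 between them on the log2 scale, and sh-CACUL1 was low against either, at -1.59 and -1.60. Adamts9 had 4.46, 0.820, 9.84 and 0.445 FPKM in this order and was lower in both comparisons, at -1.58 and -2.91. Against the other control Adamts9 was also lower past 2-fold, at -2.57 and -1.92. Adamts15 had 1.48, 0.963, 0.125 and 4.63 FPKM, and its 2.32 in sh-CACUL1 was the largest positive difference of the 45 genes upon depletion, from a level in sh-Luc far under 1 FPKM. The proteoglycanases thus had no common order.

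Adamts7 and Adamts12, which cut cartilage oligomeric matrix protein, parted. Adamts7 had 7.25 FPKM in FLAG and 8.13 in FLAG-CACUL1, then 6.56 for sh-Luc and 0.922 for sh-CACUL1. It was low in sh-CACUL1 alone, at -1.98 against sh-Luc and -2.10 against FLAG. Adamts12 had 10.1, 13.5, 63.2 and 35.4 FPKM and was higher in both hairpin lines, with 0.38 upon overexpression, -0.82 upon depletion and -2.53 between FLAG and sh-Luc. Of the fibrillin-associated pair, Adamts6 had 0.824, 1.55, 2.29 and 0.356 FPKM, with 0.48 and -1.28. Adamts10 was under 2-fold in both, at 0.83 and 0.61, and highest in sh-CACUL1 with 8.39 FPKM.

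Among the ADAMTS-like proteins, Adamtsl5, a fibrillin-binding protein, had 10.0 FPKM in FLAG and 35.5 in FLAG-CACUL1, then 28.5 for sh-Luc and 3.17 for sh-CACUL1. The log2 difference was 1.73 and -2.82, the latter a level 9.0-fold lower (7.61 to 10.8), and sh-CACUL1 stayed lower against FLAG at -1.40. Against sh-Luc, FLAG-CACUL1 was at 0.31, short of 2-fold. Adamtsl4, which also binds fibrillin microfibrils, had 17.8, 8.57, 15.5 and 5.32 FPKM, at -0.97 and -1.38, the latter also under 2-fold after either scaling. The former was -1.10 after scaling by median-of-ratios. The 10 genes that never reached 1 FPKM were Mmp15, Mmp17, Timp3, Adam11, Adam22, Adam32, Adamts13, Adamts17, Adamtsl2 and Adamtsl3, and none differed by 2-fold on the FPKM + 1 scale, which such low levels can hardly reach.

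Across the 35 genes with at least 1 FPKM in any sample, sh-CACUL1 had the lowest FPKM for 21 and the highest for 4. FLAG-CACUL1 had the highest for 13 and the lowest for 1, and sh-Luc the highest for 13 and the lowest for 3. FLAG was lowest for 10 and highest for 5. These counts rest on unscaled FPKM and were not made over all genes, so they have no share beside them. The median FPKM over all genes was also lowest in sh-CACUL1, at 5.68. It was 6.73 in FLAG, 7.32 in FLAG-CACUL1 and 8.28 in sh-Luc. The proteases and inhibitors together took 0.39% of all FPKM in FLAG and 0.95% in FLAG-CACUL1, then 0.96% for sh-Luc and 0.24% for sh-CACUL1.

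The controls FLAG and sh-Luc differed at least 2-fold for 18 of the 45 genes, 40%, against 21% of all genes. FLAG was higher for 5 (8.58% of all genes) and lower for 13 (12.4%). The 13 Adam genes were all under 2-fold between the controls on the FPKM + 1 scale. On plain FPKM low genes passed it, such as Adam1a, which was 29.8-fold lower in FLAG (6.91 to 216) from 2 estimated fragments. Adam33 was 5.80-fold higher in FLAG (1.10 to 57.0). With the controls exchanged, 12 of 45 differed in FLAG-CACUL1, against 9.9% of all genes, and 22 in sh-CACUL1, against 22.9% of all genes. In FLAG-CACUL1 5 were higher (5.04% of all genes) and 7 lower (4.87%), and in sh-CACUL1 7 were higher (7.45%) and 15 lower (15.4%). Mmp3 was the gene that was higher upon overexpression and lower upon depletion with either control. With the other control this pattern was shown by Mmp11, Mmp13, Mmp3 and Timp1, 4 of 45, against 2.98% of all genes. Adamts12 (-2.15 and 1.71) and Timp4 (-1.50 and 1.42) showed the reverse combination with the other control. Vector, selection drug and line cannot be told apart in the difference between the controls.

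**Figure D5:**
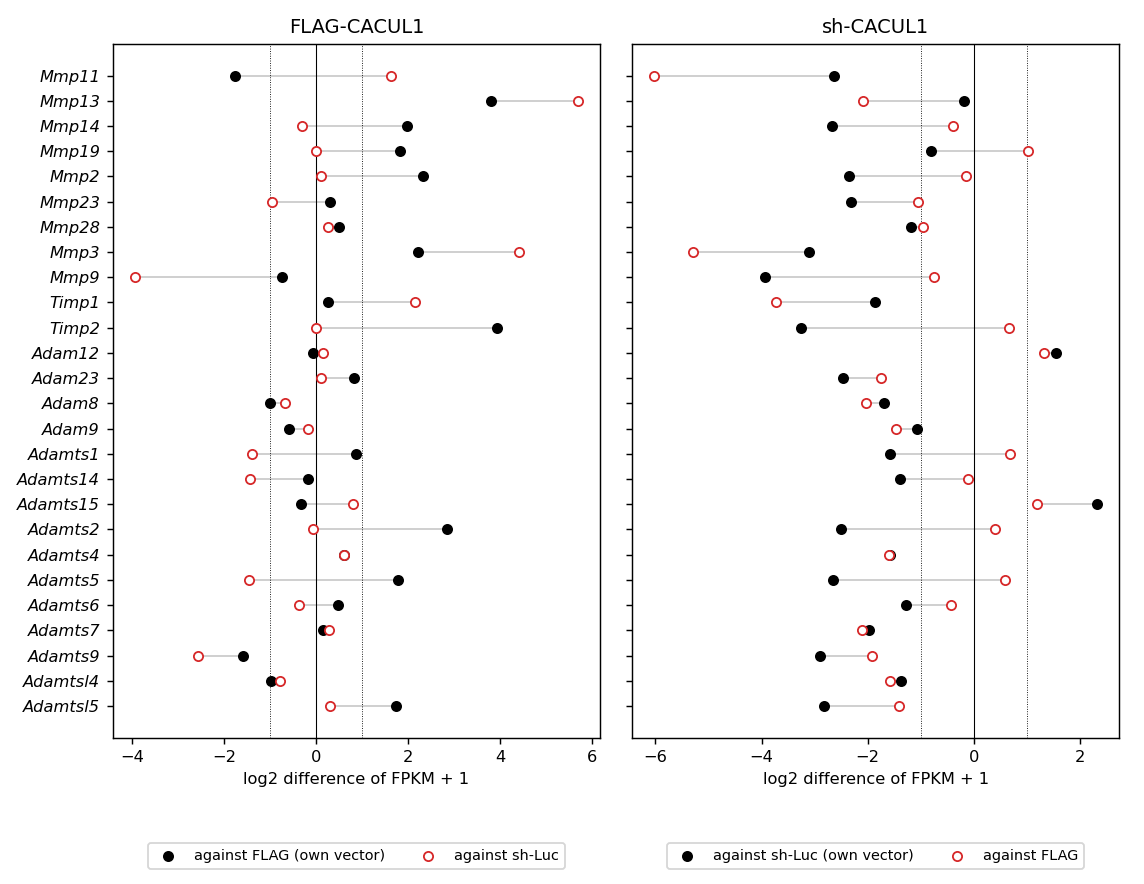
Log2 difference of FPKM + 1 of FLAG-CACUL1 (left) and sh-CACUL1 (right) against the control with the same vector (filled) and against the other control (open), for the 26 genes at 2-fold or more in either comparison with the same vector. Mmp2, Mmp14, Timp2 and Adamts2 lie under 2-fold with the other control, while Mmp3 lies past 2-fold with either control in both panels.

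Activators, inhibitors, receptors and substrates of pericellular proteolysis were read from a list of 46 other genes, of which 34 had a row. In FLAG-CACUL1 6 were higher and 5 lower, and in sh-CACUL1 2 were higher and 21 lower. Over all genes these shares were 7.51% and 7.22%, then 4.94% and 16.4%. Their median log2 difference was 0.19 and -1.41. Higher upon overexpression and lower upon depletion were Plaur (the urokinase receptor), Lrp1 (the endocytic receptor that clears MMP and TIMP complexes), Bmp1 (the procollagen C-proteinase), Vcan (the proteoglycan versican, cut by ADAMTS proteases) and Col1a2 (a chain of type I collagen). Lrp1 had 143 FPKM in FLAG and 328 in FLAG-CACUL1, then 145 for sh-Luc and 23.7 for sh-CACUL1, with the same directions against either control. Plaur, Vcan and Col1a2 kept their directions as well. Against the other control they were at 0.22 and -1.03, 0.48 and -1.55, and 1.28 and -2.33, respectively. Bmp1 had 34.4, 78.7, 81.1 and 37.6 FPKM, the order of Timp2. Dlk1, whose soluble form ADAM17 releases and which restrains adipogenesis, was the gene of the list with the opposite combination, at 97.2, 39.4, 0.220 and 21.2 FPKM. Its controls were 6.33 apart on the log2 scale. Against the other control Dlk1 was at 5.05 in FLAG-CACUL1 and -2.14 in sh-CACUL1, so both directions depended on the control.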

How the data were processed

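Total RNA of 4 samples, 1 per line, was sequenced as mRNA libraries by a company. The authors deposited FPKM values for 13110 rows of RefSeq transcripts per sample, all above 0, and a 2-fold cut-off is stated. The build is mm10 per the labels, and the aligner, the FPKM program, the normalization between samples, strandedness and any filter are not given in the sources used here. FPKM carries no read counts, so depth was estimated and no count test was run.

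Row identifiers were matched to symbols in GENCODE M21 (GRCm38, the same build). A symbol was missing for 191 rows, 8 matched several, and rows sharing a symbol (50) were summed, which left 13085 genes. In single-transcript rows of at least 3 kb, low FPKM times length fell within 0.1 of a whole multiple of the value of 1 fragment for 51.3% to 62.3% of values, so the depths and the fragments behind the counting intervals (exact conditional, 95%) are approximate. A floor is 3 fragments per sample. Promoters came from RefSeq. The zinc motif was searched in the longest open reading frames of GENCODE coding transcripts, in place of the planned RefSeq proteins.

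The symbol rule uses no values, but this gene family and the lists were chosen for study with earlier results of these data known. All genes with at least 1 FPKM in any sample are named. Those at 2-fold or more against the control with the same vector, the Timp genes and the 4 most abundant of each class have full values, with other list genes by count and values for those at 2-fold in both, except 1 that is not reported here. Alternatives were 9: pseudocounts of 0.1 and none, at least 1 FPKM in any or in all samples, quantile normalization, median-of-ratios scaling, a 3-fold cut-off, comparison with the other control and, for rows sharing a symbol, that with the highest mean in place of the sum. Scripts were tested on simulated data with 200 changed genes. Python 3.11.15, numpy 2.4.6, pandas 2.3.3, scipy 1.17.1 and matplotlib 3.10.9 were used.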

Additional observations from a re-analysis of the deposited data

How the results depend on the processing

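With 1 sample per line no replicate could be left out, and no error between cultures is known. No paired analysis was possible because each group holds 1 sample. The number of genes past 2-fold rose in FLAG-CACUL1 against FLAG from 12 to 19 with a pseudocount of 0.1 and to 22 with none, and in FLAG against sh-Luc from 18 to 27 and 30, respectively, because lower genes then pass. The other counts moved by less than 1.5 times. The number of genes higher upon overexpression and lower upon depletion or the reverse was 7, between 6 and 8 over the alternatives. With the other control it was 6, but the genes were others, and Mmp3 alone of the 7 was among them. Of 36 differences past 2-fold among the named genes, quantile normalization and median-of-ratios scaling each left 32 past it and turned none, and Adam9, Adamts14, Adamtsl4 and Mmp28 in sh-CACUL1 dropped under it. Adamts10 in sh-CACUL1 rose past 2-fold with either, and Adamtsl4 in FLAG-CACUL1 with median-of-ratios scaling. The other control left 17 past 2-fold in the same direction and 10 under it (in FLAG-CACUL1 Adam8, Adamtsl5, Mmp19 and Mmp2, in sh-CACUL1 Adamts14, Adamts6, Mmp14, Mmp2, Mmp28 and Mmp9), and turned 9. Turned in FLAG-CACUL1 were Adamts2 (-0.065), Adamts5 (-1.45), Mmp11 (1.62), Mmp14 (-0.31) and Timp2 (-0.0047), and in sh-CACUL1 Adamts1 (0.67), Adamts2 (0.41), Adamts5 (0.58) and Timp2 (0.67). The cause was not tested. Depth limits the genes under 1 FPKM, and 3 of the 45 were at or under 3 estimated fragments in every sample.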
